A study of Mus musculus with 22 samples.

Results

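The 10 genes described here are osteoclast genes and genes of RANK signaling: Tnfsf11, Tnfrsf11b, Tnfrsf11a, Nfatc1, Dcstamp, Ocstamp, Atp6v0d2, Acp5, Ctsk and Calcr. They were chosen by symbol and matched to Ensembl gene identifiers, which gave 10 of the 41388 genes in the deposited tables. Of the 10 genes, 9 passed a filter on low counts (more than 1 CPM, counts per 1e6 counts of the library, in at least 2 of 22 libraries) and were tested among 15018 genes. Calcr did not pass. RNA was sequenced from stromal cells of mouse mammary tumors, sorted by TdTomato and by the leukocyte protein CD45. The question asked of these genes was whether cells positive for both carry a program like that of osteoclasts.

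TdTomato came from the Ai9 reporter, which Osx-cre, a driver that doxycycline represses, switches on for good, so it marks cells in which the Osx (Sp7) promoter drove Cre at any time and the descendants of those cells. The populations were TdTOSX+;CD45- (TdT single positive), TdTOSX+;CD45+ (double positive), TdTOSX-;CD45+ (CD45 single positive) and TdTOSX-;CD45- (double negative) cells. Each was taken from Osx-cre;Ai9 mice, called WT here, and from Cdh2-cKO;Ai9 mice, called cKO, in which Cdh2 (N-cadherin) is conditionally deleted; a deletion by Osx-cre would concern the TdTOSX+ cells. The sample labels do not state doxycycline treatment; the paper says that after its first experiments it used mice fed doxycycline. All were on the C57BL/6 strain, with an age given as postnatal day 56; 4 WT and 6 cKO mice were inoculated, and libraries whose RNA passed an integrity check were kept. The sample labels name orthotopic MMTV-BO1 tumors, while the series design and the paper give subcutaneous injection, the paper of the line PyMT-BO1. There were 2 TdT single positive libraries per genotype and 3 of each other population per genotype, 22 in all.

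Osteoclasts are large cells with many nuclei that resorb bone; they form by fusion of precursors of the monocyte and macrophage lineage. The ligand RANKL, made mainly by cells of the osteoblast lineage, stromal cells and activated T cells, binds the receptor RANK on the precursor, and the decoy receptor OPG binds RANKL and blocks it. RANK signals through TRAF6 to NF-kB and AP-1 and, together with costimulation by ITAM adaptors, induces NFATc1, which switches on genes for fusion, acid secretion and matrix breakdown; several of these genes are also active in macrophages and fibroblasts.

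Total counts per library ran from 16594228 to 26784003, with a median of 18977040. By population the median total was 18115683 for double negative, 19292857 for CD45 single positive, 19564888 for double positive and 21303078 for TdT single positive libraries. Levels are normalized CPM unless a level per length (RPKM) is named. A gene with 3 counts would sit between 0.103 and 0.201 normalized CPM, depending on the library. Without molecular identifiers on the reads, this floor speaks of counting error alone.

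A pair of libraries stood apart and are named before the results. WT replicate 2 of the CD45 single positive cells had a summed level of 8 macrophage markers of 4547 CPM, against 13561 to 19246 CPM in the other 11 CD45+ libraries. It held 973 CPM of the B cell gene Cd79b, 514 CPM of the T cell gene Cd3e and 745 CPM of the neutrophil gene Retnlg, and its highest Pearson r with a library of its own group was 0.894. That r alone did not set it apart, since the 2 WT TdT single positive libraries had 0.886 with each other. WT replicate 3 of the double negative cells had 337 CPM of Ptprc, which encodes CD45, against 4.46 to 38.6 CPM in the other 5 double negative libraries. Its macrophage markers summed to 9316 CPM, and the library most like it was TdT single positive cKO replicate 1 (Pearson r 0.952 over genes, which are not independent replicates).

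The sorted groups were checked against defining markers. The macrophage list (8 of 8 genes higher in CD45+ libraries, C1qb most abundant over the 22 libraries together, no marker at 0 in any library) summed to a median of 16112 CPM in CD45+ libraries and 875 CPM in CD45- libraries. The fibroblast list (6 of 6 lower, Col1a1 most abundant) had medians of 76.8 and 11730.4 CPM. Of the osteoblast list, 4 of 6 genes could be tested and all 4 were lower in CD45+ libraries, with medians of 17 and 51 CPM and Runx2 the most abundant. Sp7, whose promoter defines the lineage label, had 3 counts in all and was at 0 in 19 of 22 libraries, so Sp7 RNA was not measurable at this depth.

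Tnfsf11 (ENSMUSG00000022015, chr14:78277445-78308043 of GRCm38, minus strand) encodes RANKL, the ligand that starts the pathway. Its level in the 4 TdT single positive libraries was 2.35 and 1.98 CPM in WT and 0.548 and 2.05 CPM in cKO. In double positive libraries it had a median of 0.308 CPM (lowest 0.0552, highest 0.792), and in double negative libraries a median of 0.428 CPM (0.102 to 2.16). In CD45 single positive libraries the median was 0.161 CPM, with 3.67 CPM in WT replicate 2 as the highest and a count of 0 in WT replicate 3, which allows up to 0.162 CPM. Low levels were thus seen in every population, the groups overlapped, and the highest level of all belonged to the library rich in lymphocyte genes.

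Tnfrsf11b (ENSMUSG00000063727, chr15:54250619-54278484, minus strand) encodes OPG, the secreted decoy for RANKL. The level was 49.3 and 44.4 CPM in WT and 101 and 30.4 CPM in cKO libraries of TdT single positive cells. Double negative libraries ran from 24.4 to 175 CPM with a median of 33.1 CPM. The highest of the 12 CD45+ libraries had 1.15 CPM and their median was 0.456 CPM. OPG RNA was thus a feature of the CD45- cells whether or not they were TdTOSX+, with no overlap between the 10 CD45- and the 12 CD45+ libraries.

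The balance of ligand and decoy was described as the log2 ratio of Tnfsf11 to Tnfrsf11b with 0.5 counts added to each, without a test. The ratio was -4.38 and -4.48 in the WT and -7.48 and -3.87 in the cKO TdT single positive libraries. Double negative libraries had a median of -6.89 (-7.57 to -4.11). Double positive libraries had a median of -0.37 (-2.50 to 1.49) and CD45 single positive libraries a median of -1.22 (-2.94 to 2.15). Decoy RNA outweighed ligand RNA in all 10 CD45- libraries, while the ratios of the CD45+ libraries rested on few counts, such as 1 of Tnfsf11 and 8 of Tnfrsf11b in double positive WT replicate 1. With 0.5 counts added each CD45- library lay under each CD45+ library. With 0.1 counts added this did not hold: CD45 single positive WT replicate 3, with 0 and 2 counts, moved from -2.32 to -4.39, under the -4.12 of double negative WT replicate 1 and the -3.89 of TdT single positive cKO replicate 2.

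**Figure D1:**
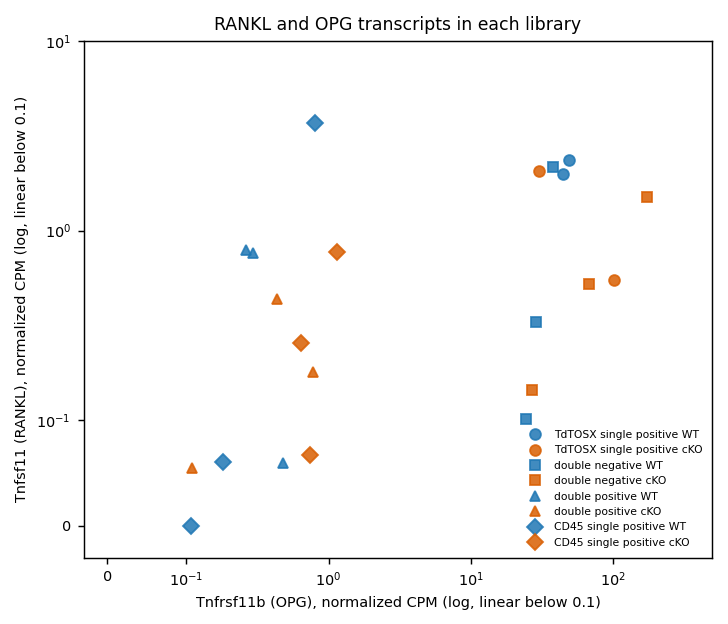
Tnfsf11 (RANKL) against Tnfrsf11b (OPG) in normalized CPM, log axes that are linear below 0.1, 1 point per library with its population by shape and WT or cKO by color. All 10 CD45- libraries lie to the right, from 24.4 CPM of Tnfrsf11b, and all 12 CD45+ libraries to the left, up to 1.15 CPM, while Tnfsf11 reaches 2.35 CPM in the former and 3.67 CPM in the latter.

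Tnfrsf11a (ENSMUSG00000026321, chr1:105780718-105847981, plus strand) encodes RANK, the receptor on osteoclast precursors. Double positive libraries had 45.3, 53.7 and 34.6 CPM in WT and 43.3, 41.1 and 46.3 CPM in cKO. CD45 single positive libraries had 52.4, 8.88 and 38.3 CPM in WT and 47.1, 35 and 50.8 CPM in cKO. All CD45+ libraries but CD45 single positive WT replicate 2 thus sat in 1 narrow band. RANK RNA was at 0.919 and 9.72 CPM in WT and 15.8 and 7.43 CPM in cKO libraries of TdT single positive cells. Double negative libraries had 0.873, 5.58 and 30.7 CPM in WT and 2.05, 2.08 and 1.5 CPM in cKO. The 30.7 CPM belonged to the double negative library with the high Ptprc level, and it was 1 of 3 CD45- libraries over the lowest CD45+ library, with TdT single positive WT replicate 2 and cKO replicate 1.

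Nfatc1 (ENSMUSG00000033016, chr18:80606205-80713071, minus strand) encodes the transcription factor at the end of the RANK pathway and is also used by other cells. Its level had a median of 53.2 CPM in double positive libraries (46.3 to 61.3) and of 40 CPM in CD45 single positive libraries (27.8 to 89.5). TdT single positive libraries had 13.1 and 29 CPM in WT and 40 and 23.8 CPM in cKO, and double negative libraries ran from 13.6 to 29.1 CPM. The double positive libraries were all above every CD45- library, while the CD45 single positive libraries overlapped them.

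Dcstamp (ENSMUSG00000022303, chr15:39745932-39760934, plus strand) and Ocstamp (ENSMUSG00000027670, chr2:165393760-165400405, minus strand) encode membrane proteins needed for the fusion of precursors. Dcstamp was at 55.2, 12.2 and 30.6 CPM in WT and 24.3, 24.5 and 37 CPM in cKO double positive libraries. In CD45 single positive libraries Dcstamp was at 55.5, 13.3 and 4.63 CPM in WT and 21.4, 21.5 and 28.5 CPM in cKO. Both CD45+ populations thus reached the same highest level, and their ranges overlapped over nearly all their length. Dcstamp was at 0 and 3.8 CPM in WT TdT single positive libraries, where the 0 allows up to 0.153 CPM, and at 9.66 and 8.93 CPM in cKO ones. Double negative libraries had a Dcstamp median of 0.691 CPM and a highest value of 12.6 CPM, in WT replicate 3.

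Ocstamp was at 38.1, 9.83 and 14.2 CPM in WT and 34.1, 116 and 23.3 CPM in cKO double positive libraries. In CD45 single positive libraries it was at 39.9, 15.6 and 10.8 CPM in WT and 8.62, 14.6 and 8.33 CPM in cKO. Double positive cKO replicate 2 thus had the highest Ocstamp level of all libraries, and the rest of the double positive libraries lay within the CD45 single positive range. Among CD45- cells, the TdT single positive libraries had 0.204 and 13.4 CPM in WT and 16.2 and 18.6 CPM in cKO, so 3 of the 4 lay inside the CD45+ range. Double negative libraries stayed between 0.263 and 8.04 CPM, under every CD45+ library.

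Atp6v0d2 (ENSMUSG00000028238, chr4:19876841-19922605, minus strand) encodes a subunit of the proton pump that acidifies the space under the osteoclast. It was at 54, 33.6 and 27.9 CPM in WT and 103, 20.3 and 78.6 CPM in cKO double positive libraries. In CD45 single positive libraries it was at 60, 81.2 and 24.9 CPM in WT and 52.6, 146 and 158 CPM in cKO. The highest levels were in the CD45 single positive libraries, with overlap. TdT single positive libraries had 3.06 and 17.3 CPM in WT and 60.7 and 10.3 CPM in cKO, and double negative libraries had a median of 2.48 CPM with 39 CPM in WT replicate 3 as the highest.

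Acp5 (ENSMUSG00000001348, chr9:22126731-22135746, minus strand) encodes TRAP, the acid phosphatase whose stain is used to find osteoclasts, and which is also made by macrophages. Its level in double positive libraries was 359, 319.8 and 189 CPM in WT and 352, 635 and 322 CPM in cKO. In CD45 single positive libraries it was 404, 287 and 300.4 CPM in WT and 248, 313 and 314 CPM in cKO. Double positive cKO replicate 2 was above the range of the CD45 single positive libraries, WT replicate 3 was below it, and the other 4 were inside it. TdT single positive libraries had 16.58 and 304 CPM in WT and 320.3 and 237 CPM in cKO. Double negative libraries had 14.5, 35.1 and 216 CPM in WT and 11.4, 21.1 and 9.17 CPM in cKO. Thus 3 of the 4 TdT single positive libraries had Acp5 RNA within the range of the CD45+ libraries, and 5 of the 6 double negative libraries had little.

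Ctsk (ENSMUSG00000028111, chr3:95499286-95509362, plus strand) encodes cathepsin K, the protease that cuts bone collagen, which activated fibroblasts also make. TdT single positive libraries had 1178 and 840.3 CPM in WT and 541 and 600.3 CPM in cKO. Double negative libraries had a median of 305 CPM (202 to 725). Double positive libraries had a median of 102 CPM (52.4 to 212) and CD45 single positive libraries a median of 108 CPM (19.5 to 183). Ctsk thus ran against the other effector genes, with its highest levels in the CD45- cells and a single crossing of the groups, 212 CPM in double positive WT replicate 2 against 202 CPM in double negative WT replicate 3.

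Promoter sequences are printed for Tnfrsf11a and Acp5, which were higher in CD45+ cells, and for Ctsk, which was lower, so that the letters read for motifs can be seen. They are the 250 bases before the start, 5′ to 3′ on the strand of the gene, from RefSeq on GRCm38.p6, at chr1:105780473-105780722 (plus strand) for Tnfrsf11a, chr9:22130599-22130848 (minus strand, 1 of 3 promoters given) for Acp5 and chr3:95498960-95499209 (plus strand) for Ctsk.
Tnfrsf11a: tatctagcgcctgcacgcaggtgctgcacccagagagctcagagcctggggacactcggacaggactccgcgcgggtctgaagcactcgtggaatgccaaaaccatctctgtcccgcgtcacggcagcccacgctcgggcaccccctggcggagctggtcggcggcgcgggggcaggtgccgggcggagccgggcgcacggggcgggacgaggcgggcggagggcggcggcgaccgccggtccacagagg
Acp5: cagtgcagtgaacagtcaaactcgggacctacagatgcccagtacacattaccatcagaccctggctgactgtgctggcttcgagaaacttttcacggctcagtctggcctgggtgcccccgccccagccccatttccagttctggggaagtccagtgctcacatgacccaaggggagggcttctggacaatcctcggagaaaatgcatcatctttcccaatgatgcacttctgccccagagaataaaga
Ctsk: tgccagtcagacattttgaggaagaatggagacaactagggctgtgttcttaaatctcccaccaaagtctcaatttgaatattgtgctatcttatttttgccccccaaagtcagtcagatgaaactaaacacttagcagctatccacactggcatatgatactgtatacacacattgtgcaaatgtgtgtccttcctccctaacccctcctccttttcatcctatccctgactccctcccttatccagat
GC made up 73.6% of the Tnfrsf11a, 54.4% of the Acp5 and 43.2% of the Ctsk window. Of the 10 genes, 5 had promoters in the RefSeq table, 8 in all (Acp5, Ctsk, Calcr, Tnfrsf11a and Tnfsf11), and Ocstamp, Dcstamp, Atp6v0d2, Nfatc1 and Tnfrsf11b did not. The AP-1 motif TGANTCA, the PU.1 motif GAGGAAGT and the E-box CACGTG, searched on both strands, had 0 matches in the 8 windows. Of all 32851 promoters, 6.75%, 2.44% and 6.02% held them. No match says only that these letters are not in this window.

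Calcr (ENSMUSG00000023964, chr6:3685677-3764713, minus strand) encodes the calcitonin receptor, which marks mature osteoclasts. It had 12 counts over all 22 libraries and was at 0 in 17 of them, and its highest level was 0.155 CPM. In double positive libraries Calcr had 2 counts, both in WT replicate 3. It was thus at or near the floor in every population and no fold is given.

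**Figure D2:**
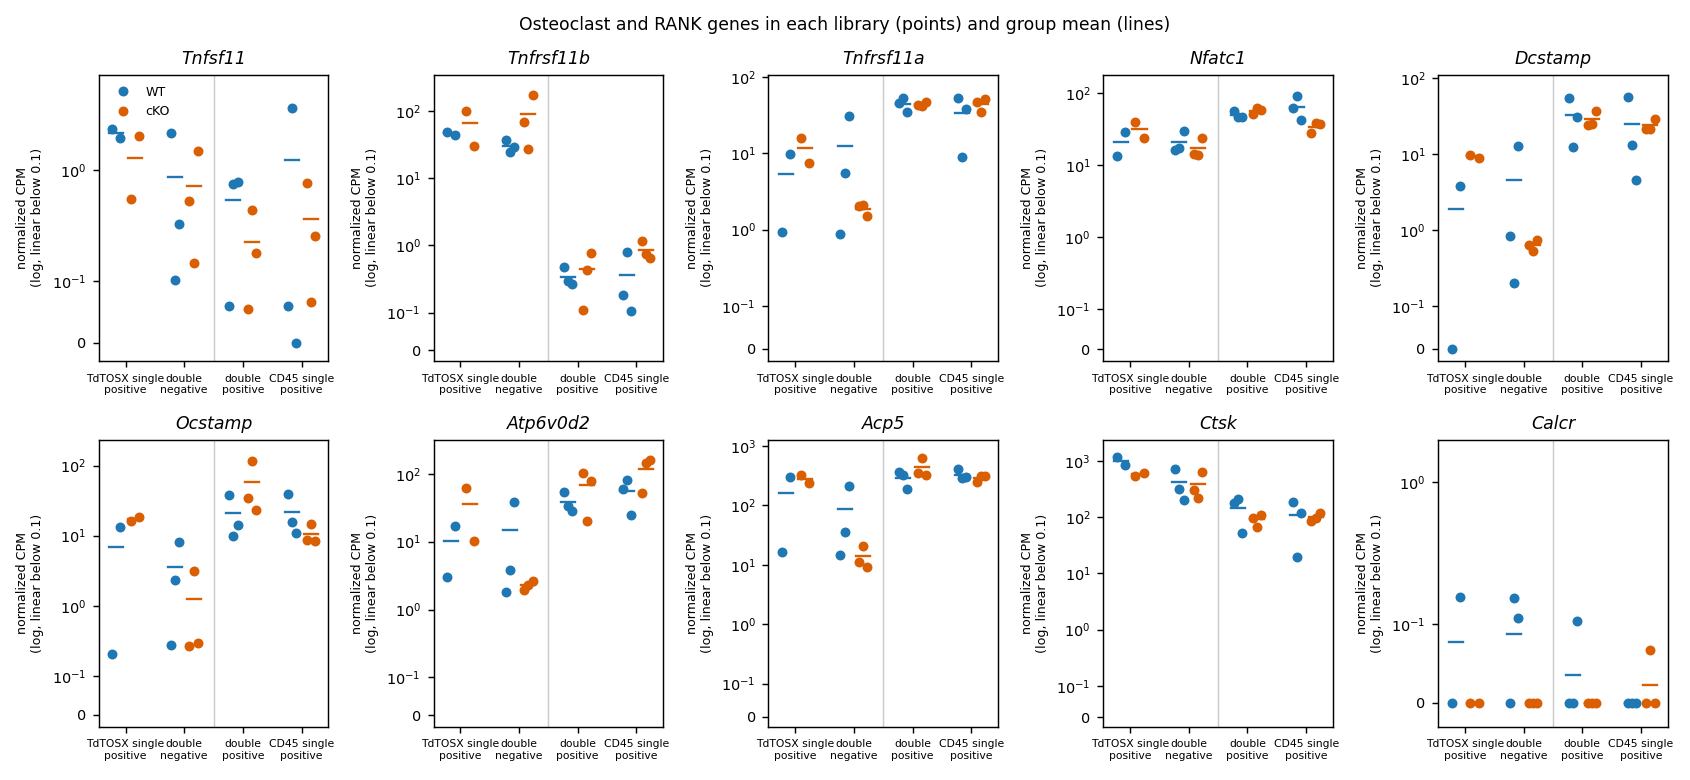
Normalized CPM of the 10 genes in each of the 22 libraries (points, WT and cKO by color) with group means (lines), 1 panel per gene on a log axis that is linear below 0.1, by population. Double positive and CD45 single positive libraries overlap for every gene, and for Tnfrsf11b the 12 CD45+ libraries (up to 1.15 CPM) lie under the 10 CD45- libraries (from 24.4 CPM).

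Between genes, levels were compared per length. In double positive libraries the order of median RPKM was Acp5 (184), Ctsk (59.6), Atp6v0d2 (14.8), Dcstamp (12.6), Ocstamp (6.76), Tnfrsf11a (6.48), Nfatc1 (6.31), Tnfsf11 (0.122), Tnfrsf11b (0.117) and Calcr (0). The range of Acp5, 109 to 349.5 RPKM, overlapped that of Ctsk, 33 to 132 RPKM; from Atp6v0d2 to Nfatc1 each neighbour's range overlapped the next, as did those of Tnfsf11 and Tnfrsf11b. In TdT single positive libraries the order began instead with Ctsk (545), Acp5 (188) and Tnfrsf11b (17.8), and in double negative libraries with Ctsk (228), Tnfrsf11b (13.3) and Acp5 (12.9). CD45 single positive libraries began, like the double positive ones, with Acp5 (166), Ctsk (59.3), Atp6v0d2 (24.8) and Dcstamp (9.31). The ligand, the decoy and Calcr were thus the lowest of the 10 genes in both CD45+ populations.

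The first comparison set the 12 CD45+ libraries against the 10 CD45- libraries, over group means of equal weight, and asked where the osteoclast genes are expressed at all. With the edgeR quasi-likelihood test and Benjamini-Hochberg adjustment over 15018 genes, 8 of the 9 genes tested were called at an adjusted p of at most 0.05, where 63.7% of all genes were called. Of these 8, 6 were higher in CD45+ cells (32.6% of all genes were) and 2 were lower (31.1% of all genes were). The median log2 fold change of the 9 genes was 1.95, against 0.06 over all genes tested. In bulk samples such as these, fewer cells of a type and less RNA per cell cannot be told apart.

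By size, Dcstamp had a log2 fold change of 3.33 (SE 0.676, adjusted p 0.000356). Tnfrsf11a followed with 2.73 (SE 0.503, adjusted p 0.000143) and Atp6v0d2 with 2.60 (SE 0.538, adjusted p 0.00042). For each of these 3 genes all 12 CD45+ libraries were above the median of the CD45- libraries. Ocstamp had a log2 fold change of 2.27 (SE 0.637, adjusted p 0.00487), Acp5 of 1.95 (SE 0.457, adjusted p 0.00124) and Nfatc1 of 1.17 (SE 0.183, adjusted p 2.9e-05), again with 12 of 12 CD45+ libraries above that median. Without TdT single positive WT replicate 2, the difference was 5.39 for Dcstamp and 3.52 for Ocstamp. That fit leaves 1 library in its group, which is assumed to vary like the other groups. The library left had 0 counts of Dcstamp and 4 of Ocstamp, so the size of these differences rests on few counts.

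Ctsk was lower in CD45+ cells, with a log2 fold change of -2.33 (SE 0.343, adjusted p 1.61e-05) and 0 of 12 CD45+ libraries above the CD45- median. Tnfrsf11b had the largest difference of the 9 genes, -6.84 (SE 0.413, adjusted p 3.99e-10), and its groups did not overlap. Tnfsf11 was not called (-1.23, SE 0.743, adjusted p 0.158). Without CD45 single positive WT replicate 2 the Tnfsf11 difference was -2.52 with an adjusted p of 0.00405, and without both libraries that stood apart it was -2.67 (adjusted p 0.00283). By limma voom with quality weights the Tnfsf11 difference was -1.74 (adjusted p 0.0237) with all 22 libraries.

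Fitted on the WT libraries alone, Acp5 (1.38, adjusted p 0.196), Ocstamp (2.12, adjusted p 0.12), Dcstamp (3.26, adjusted p 0.0703), Atp6v0d2 (1.91, adjusted p 0.0875) and Tnfrsf11a (2.24, adjusted p 0.0745) kept their direction and were not called. The WT CD45- cells included both double negative replicate 3 and TdT single positive replicate 2, whose levels of these 5 genes were above those of the other WT CD45- libraries.

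**Figure D3:**
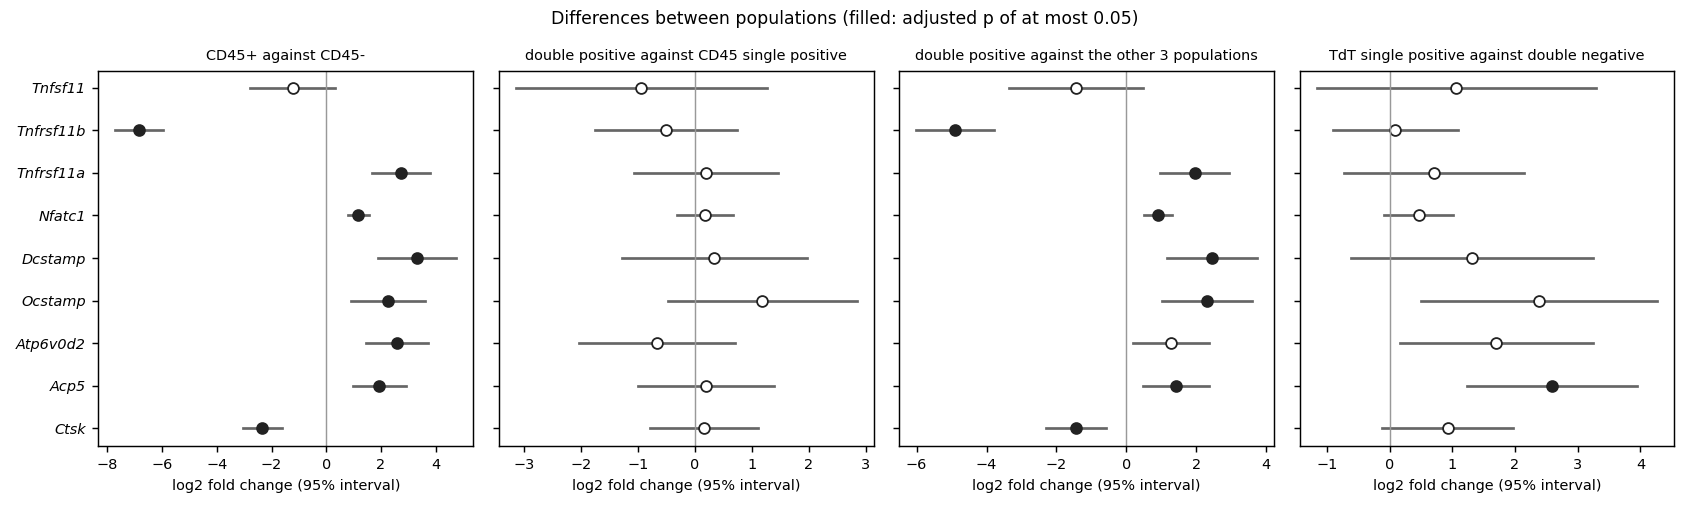
Log2 fold changes of the 9 genes tested (points, filled at an adjusted p of at most 0.05) with 95% intervals (lines) in the 4 comparisons of populations. Between double positive and CD45 single positive cells every interval crosses 0, while CD45+ against CD45- cells differ from 3.33 (Dcstamp) to -6.84 (Tnfrsf11b).

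The second comparison, double positive against CD45 single positive cells, asked what TdTOSX adds among CD45+ cells, and so bears most directly on an osteoclast program of the double positive cells. By the edgeR quasi-likelihood test 0 of the 9 genes were called, where 0.00666% of all genes were, which is 1 gene. At an unadjusted p under 0.05 there were 0 of the 9 genes and 609 of all genes; DESeq2 called 6 genes in all and voom 1, none of them among the 9. The median log2 fold change was 0.18, against -0.06 over all genes. The groups overlapped for every 1 of the 9 genes, and the share over all genes was not counted.

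Intervals show what size of difference the data allow. Nfatc1 had the narrowest, 0.18 with a 95% interval of -0.32 to 0.68. Acp5 differed by 0.19 (-1.01 to 1.398) and Ctsk by 0.16 (-0.79 to 1.10). The receptor Tnfrsf11a differed by 0.20 (-1.06 to 1.46). Among the fusion genes, Ocstamp differed by 1.18 (-0.48 to 2.84) and Dcstamp by 0.34 (-1.29 to 1.97). Atp6v0d2 went the other way, -0.67 (-2.04 to 0.70), as did Tnfsf11, -0.94 (-3.15 to 1.26), and Tnfrsf11b, -0.51 (-1.76 to 0.73). Without CD45 single positive WT replicate 2, Tnfsf11 (1.63), Tnfrsf11b (0.14), Ctsk (-0.0899) and Tnfrsf11a (-0.0255) changed sign, and voom with all 22 libraries had Tnfsf11 at 0.90. No difference was detectable at this depth and number of libraries, and for each gene but Nfatc1 a log2 difference of 1 in at least 1 direction lies inside the interval. The Ocstamp value fell to 0.68 without double positive cKO replicate 2, the library with 116 CPM.

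Over the whole profile, the library most like double positive WT replicate 1 was CD45 single positive WT replicate 1 (Pearson r 0.981 over genes), and 5 of the 6 double positive libraries had a CD45 single positive library as their nearest. The exception, cKO replicate 3, was nearest to double positive cKO replicate 1 (r 0.975). The 1 gene called was Duoxa2, named here after its values were seen. It was at 7.96 to 21.8 CPM in double positive and 0.573 to 2.11 CPM in CD45 single positive libraries (log2 fold change 3.27, SE 0.363, adjusted p 0.000916), with no overlap.

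The third comparison set the double positive population against the average of the 3 others. A gene that both CD45+ populations carry alike can be called here, since the CD45- populations are part of that average. Tnfrsf11a, for example, was called here and differed by 0.20 from CD45 single positive cells alone. Of the 9 genes 7 were called by edgeR, 5 higher and 2 lower, where 43.2% of all genes were called, 20.8% higher and 22.4% lower. It shares its libraries with the comparisons above, and its reference contains the CD45- cells. The macrophage markers moved along, 8 of 8 called higher with a median of 2.23 against 1.29 for the 9 genes, and 6 of 6 fibroblast markers were called lower with a median of -5.44. Acp5 had a log2 fold change of 1.43 (adjusted p 0.0165), Ocstamp of 2.30 (adjusted p 0.00581), Dcstamp of 2.45 (adjusted p 0.00391), Nfatc1 of 0.90 (adjusted p 0.00119) and Tnfrsf11a of 1.96 (adjusted p 0.00309). Ctsk was lower at -1.45 (adjusted p 0.00824) and Tnfrsf11b at -4.90 (adjusted p 2.65e-06), while Tnfsf11 at -1.45 (adjusted p 0.218) was not called. In the WT libraries alone 1 of the 9 genes was called, Tnfrsf11b (-4.53, adjusted p 0.00391), and 1276 of all genes.

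Single libraries moved some of these calls. Acp5 was no longer called without double positive cKO replicate 2 (1.24, adjusted p 0.0565). Dcstamp rose to 3.82 without TdT single positive WT replicate 2, a fit that leaves its group 1 library, with a Dcstamp count of 0. Atp6v0d2, at 1.29 with an adjusted p of 0.0524, was called when any of 6 libraries was left out: TdT single positive WT replicate 2 (1.58) or cKO replicate 1 (1.58), CD45 single positive WT replicate 2 (1.35), double negative WT replicate 1 (1.20) or WT replicate 3 (1.65), or double positive cKO replicate 2 (1.50). The median over the 9 genes was 1.29, against 0.00 over all genes tested.

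The fourth comparison, TdT single positive against double negative cells, asked what TdTOSX marks among CD45- cells. Of the 9 genes 1 was called by edgeR, Acp5, and 1.89% of all genes were called, 1.23% higher and 0.659% lower. Ocstamp, Dcstamp, Tnfrsf11a and Tnfrsf11b were negative in some fits that left out a single library. With all libraries all 9 differences were positive, with a median of 1.06 against 0.07 over all genes. Some marker lists were positive as well, with medians of 1.05 for macrophage (8 of 8 positive), 0.997 for fibroblast (6 of 6), 1.18 for pericyte (4 of 4), 0.75 for T cell, 0.80 for regulatory and type 17 T cell and 0.29 for B cell markers. Others were negative, with -0.98 for tumor epithelial, -0.86 for endothelial, -0.53 for skeletal muscle, -0.26 for osteoblast, -0.20 for dendritic cell and -0.0845 for neutrophil markers. Acp5 was higher in TdT single positive cells by 2.59 (SE 0.643, 95% interval 1.24 to 3.95, adjusted p 0.0477), and 3 of 4 TdT single positive libraries were above the double negative median of 17.8 CPM and above the highest double negative library. The groups overlapped through TdT single positive WT replicate 1, at 16.58 CPM, and double negative WT replicate 3, at 216 CPM.

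That call sat at the edge of the threshold. With each of the 22 libraries left out in turn, the Acp5 difference ran from 0.96 (without TdT single positive WT replicate 2, adjusted p 0.335) to 3.51 (without double negative WT replicate 3, adjusted p 0.00528), and it was not called in 18 of the 22 fits. The number of all genes called ran from 29 to 875 over these fits. In 12 of the fits the library left out was a CD45+ library, which moved the adjusted p and left the difference at 2.59. In the WT libraries alone Acp5 differed by 0.86 (adjusted p 0.788), and in the cKO libraries alone by 4.33 (adjusted p 3.17e-05). DESeq2 gave 2.60 (adjusted p 0.00177) and voom 2.74 (adjusted p 0.0158), whereas a fit of the 4 groups compared alone gave 2.49 (adjusted p 0.227) and a replicate block 2.80 (adjusted p 0.0829).

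In the cKO libraries alone Ocstamp (3.82, adjusted p 0.0172), Dcstamp (3.84, adjusted p 2.3e-05), Atp6v0d2 (3.94, adjusted p 0.0073) and Tnfrsf11a (2.63, adjusted p 0.000154) were called as well. That fit also called more of all genes than the fit with all libraries, as counted below with the other alternatives. In the WT libraries alone Dcstamp (-1.23), Atp6v0d2 (-0.54) and Tnfrsf11a (-1.21) were lower in TdT single positive cells, with double negative WT replicate 3 among the 3 libraries on the other side. Libraries were also paired by replicate number within a genotype, which may or may not mean shared mice. TdT single positive cells were higher in 4 of 4 pairs for Acp5, Atp6v0d2 and Tnfrsf11a and in 3 of 4 for Dcstamp. In the WT replicate 1 pair Tnfrsf11a was nearly equal, at 0.919 against 0.873 CPM from 18 and 19 counts. Acp5 was close there too, at 16.58 against 14.5 CPM. Ocstamp was lower in that pair, at 0.204 against 0.276 CPM, and higher in the others. WT replicate 3 and cKO replicate 3 of the double negative cells are in none of these pairs. Whether this comparison differs between the genotypes was not tested. Over all libraries Ocstamp differed by 2.38 (adjusted p 0.159), Atp6v0d2 by 1.70 (adjusted p 0.217) and Tnfrsf11a by 0.71 (adjusted p 0.591); the decoy Tnfrsf11b differed by 0.09 (adjusted p 0.941).

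Macrophage markers moved along with these differences among the CD45- libraries, so each library was set beside the CD45+ cells. The 8 macrophage markers summed to 79.1 and 2340.5 CPM in WT and 6418 and 2218 CPM in cKO TdT single positive libraries. They summed to 147, 1409 and 9316 CPM in WT and 282, 341 and 245 CPM in cKO double negative libraries. No marker was at 0 in any of them. The 2 libraries with most macrophage RNA were thus the ones with most Tnfrsf11a, Dcstamp and Atp6v0d2, and the part of such cells in the results was not tested.

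As percent of the mean of the 12 CD45+ libraries, the macrophage sum was 0.521 and 15.4 in WT and 42.3 and 14.6 in cKO TdT single positive libraries. Tnfrsf11a was at 2.22 and 23.5 percent in WT and 38.2 and 17.9 percent in cKO, and Dcstamp at 0, 13.9, 35.3 and 32.6 percent in the same order. Acp5 was at 4.92, 90.3, 95.1 and 70.4 percent. Ocstamp was at 0.734, 48.1, 58.2 and 67 percent, and Ptprc at 0.365, 12.1, 24.4 and 13.4 percent. Atp6v0d2, with a CD45+ mean of 70.0 CPM, was at 3.06, 17.3, 60.7 and 10.3 CPM in the same order. Its 60.7 CPM in cKO replicate 1 was 86.7 percent of that mean. In 3 of the 4 TdT single positive libraries Acp5 and Ocstamp thus stood at a larger share of their CD45+ level than Ptprc, the macrophage sum or the receptor Tnfrsf11a did, and in WT replicate 1 all of these were low.

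Double negative WT replicate 3, the library richest in macrophage RNA among the CD45- cells, had the macrophage sum at 61.4 percent, Ptprc at 50.3 percent and Tnfrsf11a at 74.2 percent of the CD45+ mean. Its Acp5 was at 64.1 percent, Ocstamp at 28.9 percent, Dcstamp at 46 percent and Atp6v0d2 at 55.7 percent. In this library Acp5 thus stood near the macrophage markers and Ocstamp lower. In the other 5 double negative libraries Acp5 was at 2.72 to 10.4 percent and the macrophage sum at 0.969 to 9.28 percent.

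**Figure D4:**
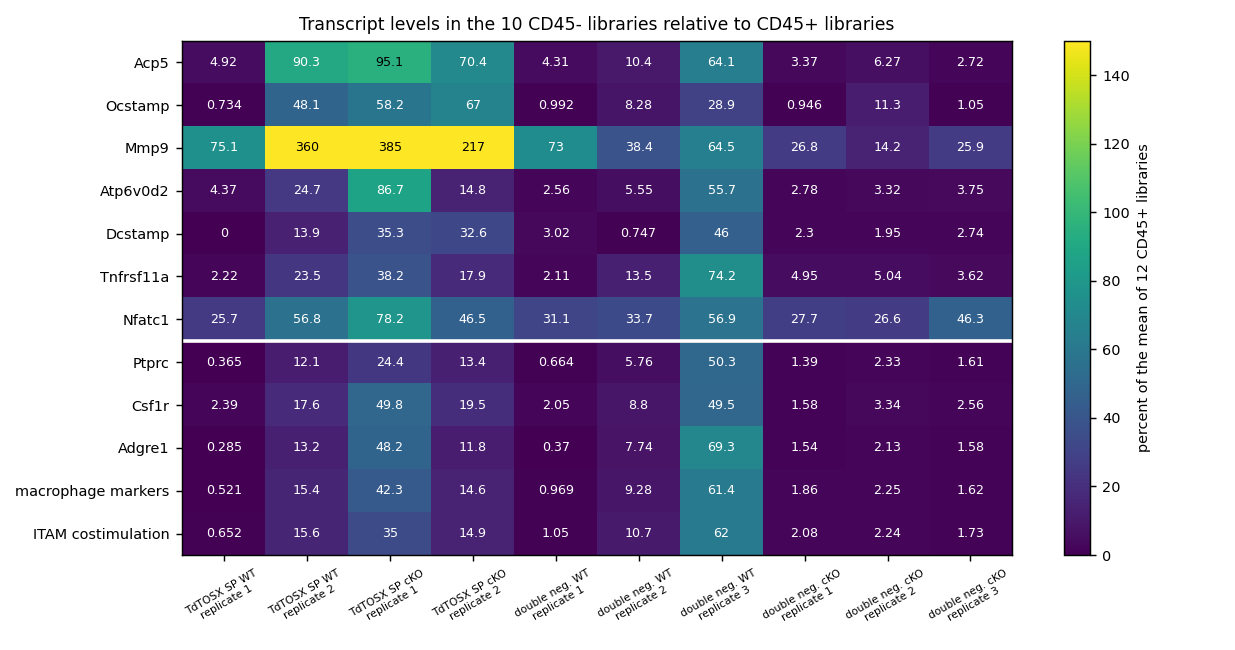
Levels in the 10 CD45- libraries (columns) as percent of the mean of the 12 CD45+ libraries, by color and number, for 6 of the osteoclast and RANK genes and Mmp9 above the white line and for Ptprc, Csf1r, Adgre1 and the summed macrophage and ITAM lists below it. In TdT single positive WT replicate 2 Acp5 is at 90.3 percent and the macrophage sum at 15.4 percent; in double negative WT replicate 3 they are at 64.1 and 61.4 percent.

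Where cKO and WT libraries are compared, Cdh2 comes first, since it is the gene said to be deleted. It was at 9.13 and 5.19 CPM in WT and 17.2 and 13.1 CPM in cKO TdT single positive libraries. In double negative libraries it was at 6.02, 7.47 and 4.52 CPM in WT and 12.5, 18.4 and 14.2 CPM in cKO, and no CD45+ library was over 2.74 CPM. Cdh2 was thus not lower in the CD45- libraries labelled cKO (log2 fold change 1.08, adjusted p 0.668, in TdT single positive and 1.32, adjusted p 0.623, in double negative cells); the deleted exons are not given, so counts over the whole gene may not show the deletion.

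Between cKO and WT, 0 of the 9 genes were called by edgeR in any population. In double positive cells 0% of all genes were called, with 515 genes and 0 of the 9 at an unadjusted p under 0.05; DESeq2 called 1 gene and voom 0. Ocstamp differed by 1.48, Atp6v0d2 by 0.81, Acp5 by 0.59 and Ctsk by -0.70. In CD45 single positive cells 0% of all genes were called, with 1474 genes at an unadjusted p under 0.05; DESeq2 called 41 and voom 0. Nfatc1 was the 1 of the 9 at that level, lower in cKO by -0.92 (SE 0.337, adjusted p 0.428). It was at 27.8, 37.5 and 36.9 CPM in cKO and at 60.6, 89.5 and 42.6 CPM in WT libraries. The 89.5 CPM belonged to WT replicate 2, which stood apart; without it Nfatc1 differed by -0.60. The medians of the B cell (-7.78) and T cell (-4.13) lists were lower in cKO as well, and the part of such cells in the Nfatc1 value was not tested.

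Among TdT single positive cells, 0.00666% of all genes were called, with 1576 genes and 0 of the 9 at an unadjusted p under 0.05; DESeq2 called 134 and voom 0. The 1 gene called was Nipal3 (4.98, SE 0.690, adjusted p 0.0194), named after its values were seen. It was at 1.78 to 4.08 CPM in cKO and at 0.0510 to 0.116 CPM in WT libraries. Those WT levels lie at or under the level of 3 counts, so the size of the fold rests on few counts. The number of genes called moved when single libraries were left out, as given below. With 2 libraries a side 7 of the 9 differences were positive and 2 negative. They ran from 2.26 (Dcstamp) to -0.82 (Ctsk), with Ocstamp at 1.35, none of them called. The macrophage markers had a median of 1.75 (8 of 8 positive) and the fibroblast markers of -1.15 (6 of 6 negative). Larger positive medians were 2.88 for dendritic cell, 2.61 for skeletal muscle and 2.46 for tumor epithelial markers. Negative medians included -1.22 for pericyte, -1.19 for endothelial and -1.20 for regulatory and type 17 T cell markers. None of these marker genes were called either. In double negative cells 0% of all genes were called, with 1441 genes at an unadjusted p under 0.05; DESeq2 called 548 and voom 0.

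Of the 9 genes 5 had an unadjusted p under 0.05 in double negative cells. Acp5 differed by -2.67 (adjusted p 0.195), Tnfrsf11a by -2.72 (adjusted p 0.229), Atp6v0d2 by -2.69 (adjusted p 0.292) and Dcstamp by -2.81 (adjusted p 0.473), while Tnfrsf11b differed by 1.57 (adjusted p 0.33). The first 4 rested on WT replicate 3: without it they were -0.82, -0.76, -0.28 and 0.31. The macrophage markers (median -3.79, 8 of 8 negative) and the ITAM genes (median -3.69, 8 of 8 negative) ran the same way in this comparison with all libraries, none of them called, and the part of macrophages in these values was not tested. Without WT replicate 1, on the other hand, Acp5 (-3.18, adjusted p 0.0343) and Tnfrsf11a (-3.27, adjusted p 0.0275) were called, 2 of the 603 genes called then, and DESeq2 called both with all libraries (-2.58, adjusted p 0.0245, and -2.63, adjusted p 0.0419).

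Last, the difference between double positive and CD45 single positive cells was compared between the genotypes. By edgeR 0 of the 9 genes were called and 0% of all genes; 655 genes had an unadjusted p under 0.05, and DESeq2 and voom called 0. Nfatc1 was the 1 of the 9 with an unadjusted p under 0.05 (1.11, p 0.0306 by the edgeR test, adjusted p 0.953). Ocstamp had the largest value, 2.55, with the same adjusted p. That value includes double positive cKO replicate 2, at 116 CPM of Ocstamp against 34.1 and 23.3 CPM in the other double positive cKO libraries.

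The other genes of the pathway were taken from lists set by role. Among 12 of 13 osteoclast effectors (Siglec15 did not pass the filter), 7 were higher and 2 lower in CD45+ cells, with a median of 0.77, where 32.6% of all genes were higher and 31.1% lower. Tcirg1, another subunit of the proton pump, was higher by 1.38 (adjusted p 1.45e-06), at a median of 178 CPM (92.6 to 240.4) in CD45+ and 58.9 CPM (35.9 to 114) in CD45- libraries. Itgb3, the integrin chain with which osteoclasts attach to bone, was lower by -2.92 (adjusted p 1.28e-05), at a median of 5.41 CPM (1.78 to 36.2) in CD45+ and 57.4 CPM (10.7 to 99.5) in CD45- libraries. Like Ctsk, Itgb3 was thus an osteoclast gene whose RNA was highest outside the CD45+ cells. Snx10 (1.57), Ostm1 (1.01) and Clcn7 (0.97), which serve acid secretion and vesicle traffic, were higher. Of the effectors called, Car2 (1.13) and Plekhm1 (0.57) were not called in 15 and 9 of the 22 fits that leave out 1 library, and without CD45 single positive WT replicate 2 the Car2 value was 0.45.

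Mmp9, a gelatinase of osteoclasts that other cells also make, was the effector called between TdT single positive and double negative cells. It was at 28.3 and 136 CPM in WT and 145 and 81.8 CPM in cKO TdT single positive libraries. In double negative libraries it was at 27.5, 14.5 and 24.3 CPM in WT and 10.1, 5.33 and 9.75 CPM in cKO, so the groups did not overlap, by a margin of less than 1 CPM. The log2 fold change was 2.82 (SE 0.446, adjusted p 0.00549), and Mmp9 was called in all 22 fits that leave out 1 library, with 2.06 without TdT single positive WT replicate 2 as the lowest value. It was not called in a fit of the 4 groups alone (2.74, adjusted p 0.107) or in WT libraries alone (1.89, adjusted p 0.506), and it was in cKO libraries alone (3.75, adjusted p 0.000217). As percent of the CD45+ mean Mmp9 stood at 75.1 and 359.9 in WT and 385 and 217 in cKO TdT single positive libraries, that is, above the CD45+ mean in the 3 libraries with most Acp5.

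Of 17 genes from RANK to NF-kB and AP-1, 8 were higher and 1 lower in CD45+ cells, with a median of 0.20, where 32.6% of all genes were higher and 31.1% lower; the 9 of 17 called are a smaller share than the 63.7% of all genes called. Ikbkb, a kinase that frees NF-kB, was higher by 1.33 (adjusted p 6.03e-06), Gab2, an adaptor of RANK, by 1.28, Cyld, which removes ubiquitin from TRAF6, by 1.13 and Traf6 by 0.91; Tab2 (0.20) was called too, but not in 15 of the 22 fits that leave out 1 library. All 8 genes of the ITAM costimulation list, which holds an inhibitory receptor as well, were higher, with a median of 3.36. Among them were Tyrobp (3.41), Plcg2 (3.40), Syk (2.85, adjusted p 1.7e-06) and Tec (2.15). Of 8 precursor and repressor factors 6 were higher and 0 lower, with a median of 2.08. These included factors that make precursors competent, Csf1r (3.10), Spi1 (3.37) and Tfec (3.22), and Irf8 (2.29, adjusted p 7.59e-07), which holds osteoclast genes down.

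The list named stromal supply held 11 genes, some of them receptors, and not each of them promotes osteoclasts. Of these, 9 were lower and 1 higher in CD45+ cells, with a median of -3.67, where 31.1% of all genes were lower and 32.6% higher. Wnt5a, a ligand that raises RANK in precursors, was lower by -6.47 (adjusted p 3.82e-11), at a median of 3.52 CPM (1.4 to 9.7) in CD45+ and 314 CPM (105 to 526) in CD45- libraries. Cxcl12 (-5.92), Sema3a (-4.05) and Lgr4 (-3.01) were lower as well.

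In double positive against CD45 single positive cells 0 genes of these 5 lists were called by edgeR, and the medians were 0.18, -0.06, -0.02, 0.21 and -0.48 for effectors, RANK to NF-kB and AP-1, ITAM costimulation, precursor and repressor factors, and stromal supply. Against the other 3 populations, double positive cells had 5 effectors higher and 1 lower, 3 and 0 of the RANK to NF-kB list, 8 and 0 of ITAM costimulation, 5 and 0 of the factors, and 1 and 8 of stromal supply, where 20.8% of all genes were higher and 22.4% lower. The gene with the smallest adjusted p of each list was Tcirg1 (1.14), Ikbkb (0.92), Plcg2 (2.39), Irf8 (1.69) or Wnt5a (-4.78), in the order of the lists. Between TdT single positive and double negative cells 1 gene of the 5 lists was called, Mmp9, and between genotypes 0 were called in any comparison.

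**Figure D5:**
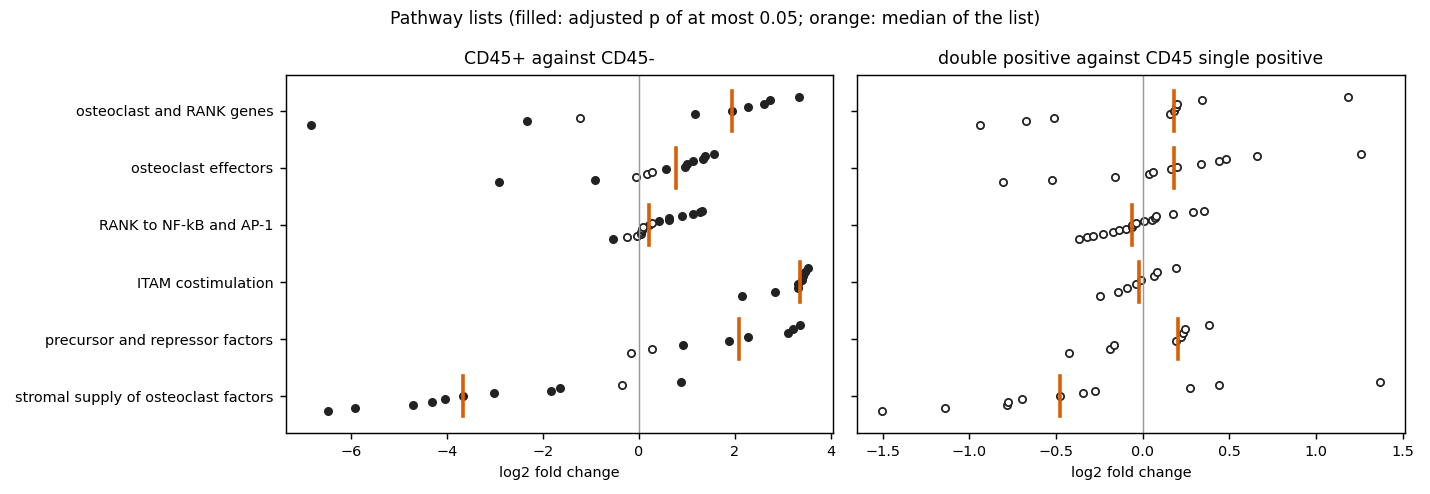
Log2 fold changes of the genes tested of the osteoclast and RANK genes and of the 5 pathway lists (points, filled at an adjusted p of at most 0.05) with list medians (orange lines), in CD45+ against CD45- cells and in double positive against CD45 single positive cells. The medians of the 5 lists span 3.36 (ITAM costimulation) to -3.67 (stromal supply) in the first and 0.21 to -0.48 in the second.

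The remaining marker lists, given as genes higher and lower in CD45+ cells and as median summed CPM in CD45+ and CD45- libraries, were as follows, with the gene that is most abundant over the 22 libraries together. Neutrophil genes had 5 and 0 of 5 tested, Retnlg, 47.2 and 7.51 CPM, where Retnlg owed its place to the 745 CPM of CD45 single positive WT replicate 2 and was at 1.19 CPM in double positive WT replicate 1, whose list summed to 47.7 CPM. Dendritic cell genes had 4 and 1 of 6, Ccr7, 63.5 and 9.43 CPM. T cell genes had 6 and 0 of 6, Cd2, 61.6 and 4.62 CPM, and genes of regulatory and type 17 T cells 4 and 0 of 5, Ctla4, 9.1 and 1.33 CPM. B cell genes had 2 and 0 of 3, Cd79b, 9.55 and 1.83 CPM. Pericyte genes had 0 and 3 of 4, Rgs5, 64.4 and 561 CPM, and endothelial genes 0 and 4 of 4, Pecam1, 18.1 and 91.3 CPM. Tumor epithelial genes had 2 and 2 of 4, Krt18, 275 and 926 CPM, and skeletal muscle genes 0 and 2 of 3, Acta1, 3.8 and 28.1 CPM. In double positive against CD45 single positive cells 0 genes of the 12 marker lists were called by edgeR.

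Genes whose level ran most like that of each of the 9 genes were found by Pearson r of log2 CPM over the 22 libraries, which share the sorted populations, as a description with no test. For Tnfrsf11a they were Slamf9 (0.992), Arl11 (0.991) and Clec4a2 (0.99). Dcstamp ran most like Pkd1l2 (0.968), Itgax (0.963) and Nlrp3 (0.957), and Atp6v0d2 like Mmp12 (0.959), a gene without a symbol (0.95) and Il7r (0.948). The profile of Acp5 was closest to Stra6l (0.966), Trf (0.951) and Fgd2 (0.95). Ocstamp was closest to Ppfia4 (0.943), Acp5 (0.942) and Hps4 (0.941), so among the members only Ocstamp had another member in its nearest 3. Nfatc1 was closest to Atp2a3 (0.949), Tor1aip1 (0.944) and Aqp9 (0.943). Ctsk ran with Pros1 (0.961), Lima1 (0.939) and Snx7 (0.935), and Tnfrsf11b with Wnt5a (0.98), Grem1 (0.976) and Tmem45a (0.976). Tnfsf11, at few counts, reached Serpina3g (0.851), Sytl2 (0.831) and Sgip1 (0.827).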

How the data were processed

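RNA of 22 libraries of sorted tumor stroma was made into cDNA with a SMARTer kit, which keeps no strand, so overlapping antisense RNA would be counted in; the 10 genes share 0 exonic bases with other genes. The authors aligned reads to GRCm38 with STAR 2.0.4b and counted them with Subread featureCounts 1.45 (the version as labelled), and the deposited files give each gene a count, CPM and RPKM. The deposited CPM and RPKM were checked against the counts (relative deviation at most 5.1e-15 and 5.2e-14). Of 41388 gene identifiers 40254 matched a symbol.

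Counts were fitted with edgeR 4.0.16 (TMM factors, quasi-likelihood test, 8 group means, genes over 1 CPM in at least 2 libraries, 355 rRNA genes left out) with calls at an adjusted p (Benjamini-Hochberg, over 15018 genes) up to 0.05. Normalized CPM divides counts by the library total times its TMM factor. Population comparisons weight the groups equally. Alternatives were RLE factors, no filter (30046 genes), filterByExpr (16698 genes), DESeq2 1.42.0, limma 3.58.1 voomWithQualityWeights, a robust fit, an added log2 threshold of 2, the groups compared alone, 1 genotype alone, a replicate block, each library left out in turn, both libraries that stood apart left out, and 0.1 or 1 added counts for the ratio. R 4.3.3, Python 3.11.15, pandas 2.3.3, scipy 1.17.1 and matplotlib 3.10.9 were used.

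Genes named are the 10 members; from each of 5 pathway lists (osteoclast effectors, RANK to NF-kB and AP-1, ITAM costimulation, precursor and repressor factors, stromal supply) the called genes with the smallest adjusted p, at most 4 per population comparison; the most abundant gene of each of 12 marker lists (macrophage, neutrophil, dendritic cell, T cell, regulatory and type 17 T cell, B cell, fibroblast, pericyte, endothelial, osteoblast, tumor epithelial, skeletal muscle) with a few sort and lineage genes; and the 3 genes most like each member. Duoxa2, Nipal3, Car2, Plekhm1, Tab2 and other values outside this rule were chosen after they were seen. 1 gene that this rule would name is not reported here. The members and lists were chosen with earlier results of these data known.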

Additional observations from a re-analysis of the deposited data

How the results depend on the processing

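Of 2565 values of the 9 genes over the alternatives, 2430 kept direction and side of the threshold, 33 were no longer past it, 27 were newly past it and 75 reversed, 40 of them with 1 library left out and 35 otherwise. In CD45+ against CD45- cells and in double positive cells against the other 3 populations 0 values reversed. The median log2 ratio of Tnfsf11 to Tnfrsf11b moved by less than 1 SD in every population with 0.1 or 1 counts added, while the ratio of CD45 single positive WT replicate 3 moved from -2.32 to -4.39 with 0.1 counts added, into the range of the CD45- libraries.

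Counts of all genes called changed as follows, with genes of the 9 called where those changed. In CD45+ against CD45- cells 3709 genes (6 of the 9) had a log2 fold change of at least 2, and WT libraries alone gave 5669 genes (3 of the 9); voom and leaving out both libraries that stood apart added Tnfsf11 to the 8 genes called. In double positive against CD45 single positive cells DESeq2 gave 6 and WT libraries alone 0. In double positive cells against the other 3 populations 2435 genes (3 of the 9) had a log2 fold change of at least 2, and WT libraries alone gave 1276 (1 of the 9). There Atp6v0d2 was added to the 7 genes called by no filter (1.28), DESeq2 (1.26), voom (1.63), cKO libraries alone (1.63) and leaving out both libraries (1.71). A stricter threshold lowers such counts by construction; other causes were not tested.

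In TdT single positive against double negative cells no filter gave 92 genes, DESeq2 982, voom 718, a log2 fold change of at least 2 39, the groups compared alone 2 (0 of the 9), WT libraries alone 0 (0 of the 9), cKO libraries alone 1152 (5 of the 9), the replicate block 185 (0 of the 9) and leaving out both libraries that stood apart 1490 (5 of the 9). With 1 library left out it was 29 to 875 genes and 0 to 2 of the 9. Between genotypes DESeq2 gave 1 gene in double positive, 41 in CD45 single positive, 134 in TdT single positive and 548 (2 of the 9) in double negative cells. In TdT single positive cells voom and the groups compared alone gave 0, leaving out both libraries 67 and leaving out 1 library 0 to 89. In double negative cells leaving out 1 library gave 0 to 603 genes and 0 to 2 of the 9. The cause was not tested.

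Reversed log2 fold changes in double positive against CD45 single positive cells were, by voom, Acp5 -0.0077, Ctsk -0.26, Tnfrsf11a -0.0203 and Tnfsf11 0.90; in WT libraries alone, Acp5 -0.19, Ocstamp -0.0939 and Nfatc1 -0.38; in cKO libraries alone, Ctsk -0.13 and Tnfrsf11a -0.0083; and without both libraries that stood apart, Ctsk -0.0888, Tnfrsf11a -0.0254, Tnfsf11 1.63 and Tnfrsf11b 0.13. With 1 library left out Ctsk ran from -0.0899 to 0.47, Tnfrsf11a from -0.0255 to 0.45, Tnfsf11 from -1.41 to 1.63 and Tnfrsf11b from -0.83 to 0.14. In TdT single positive against double negative cells WT libraries alone reversed Dcstamp (-1.23), Atp6v0d2 (-0.54) and Tnfrsf11a (-1.21), and cKO libraries alone Tnfrsf11b (-0.47). With 1 library left out Ocstamp ran from -0.12 to 3.44, Dcstamp from -2.80 to 2.86, Tnfrsf11a from -0.56 to 1.69, Tnfrsf11b from -0.47 to 0.55 and Acp5 from 0.96 to 3.51. The cause was not tested.

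Between genotypes, double positive cells reversed for Tnfrsf11a by voom (0.0701) and replicate block (0.60) and for Tnfrsf11b by voom (-0.0739). With 1 library left out Dcstamp ran from -0.58 to 0.42, Tnfrsf11a from -0.18 to 0.12 and Tnfrsf11b from -0.29 to 0.80. CD45 single positive cells reversed for Acp5 with the replicate block (0.26), Dcstamp by voom (0.33), Tnfrsf11a without both libraries (-0.0383) and Tnfsf11 by voom (2.10) and without both libraries (3.44). There Ctsk ran from -0.59 to 0.53, Dcstamp from -0.53 to 1.41, Tnfrsf11a from -0.0333 to 0.91 and Tnfsf11 from -2.89 to 3.43 with 1 library left out. In TdT single positive cells Acp5 ran from -0.13 to 4.07 and Tnfrsf11b from -0.62 to 1.11. Double negative cells reversed for Dcstamp by voom (0.51) and without both libraries (0.30), Nfatc1 without both libraries (0.0732) and Tnfsf11 by voom (1.05); Ctsk ran from -0.67 to 0.60, Dcstamp from -3.37 to 0.31, Nfatc1 from -0.58 to 0.0728 and Tnfsf11 from -1.37 to 1.73. The genotype difference of double positive against CD45 single positive cells reversed for Ctsk by voom (0.21), Dcstamp with the replicate block (0.0438) and without both libraries (0.13) and Tnfsf11 by voom (-3.50), with the replicate block (-0.46) and without both libraries (-4.68). There Dcstamp ran from -1.60 to 0.46, Atp6v0d2 from -0.74 to 0.14, Tnfrsf11a from -0.94 to 0.0013 and Tnfsf11 from -4.65 to 1.66. The cause was not tested.

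A replicate block assumes that libraries with the same number come from the same mice, which is not stated. Deviations from group means of 30 pairs with the same number and genotype correlated at a median r of 0.0515 (-0.296 to 0.593; 10 over 0.1), and 12 of 22 libraries correlated best with their own number. The 4 such pairs of TdT single positive and double negative libraries were all over 0.1 (0.593, 0.215, 0.113 and 0.166), where deviations in a group of 2 libraries mirror each other. With the replicate block the calls of the 9 genes by the edgeR test changed in none of the population comparisons but the fourth. There Acp5 was no longer called (2.80, adjusted p 0.0829). Between CD45+ and CD45- cells Acp5 differed by 2.18 (adjusted p 0.002) with the block.

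The data limit what can be said. Sorted bulk RNA holds several cell types, and how pure each sort was is not given. Groups hold 2 or 3 libraries. Calcr was not tested, and Tnfsf11 rests on few counts. RNA does not show TRAP activity, resorption or fused cells. Whether libraries of different populations came from the same mice is not stated, nor is the deleted region of Cdh2.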
